A study of Mus musculus with 12 samples.

Results

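Paired populations of cancer-associated fibroblasts sorted from the same mammary tumours were compared, the Ly6C-positive fibroblasts, called iCAF, and a Ly6C-negative, NCAM-negative population, called mCAF. The comparison used 6 of the 12 RNA-seq libraries of the study, 3 of each population, chosen by the sort gate in the library name and paired by the number 27, 30 or 31 that the names share. These numbers are read here as the 3 mice. The animals were untreated 10-week-old FVB mice carrying MMTV-PyMT, a transgene in which a mammary promoter drives a viral oncogene, polyoma middle T, in the epithelium, so that tumours arise spontaneously. Both populations therefore come from tumour-bearing transgenic animals, and no fibroblasts from normal mammary gland enter the comparison. Tumours were digested with collagenase and DNase, and both gates kept live PDGFRb-positive cells that lacked the leukocyte marker CD45, the endothelial marker CD31 and the epithelial marker EPCAM. The iCAF gate then took Ly6C-positive cells. The mCAF gate took cells negative for Ly6C and CD146, positive for PDGFRa and negative for NCAM. The study asked how gene expression differs between CAF populations, and the other 6 libraries, of NCAM-positive mCAF and CD146-positive CAF, entered the fit to share its estimate of spread, and their means are given beside some genes.

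Fibroblasts of many tissues include a perivascular, adventitial kind marked by genes such as Pi16, Dpp4, Ly6a and Cd34, which is known as a reservoir of fibroblast precursors. In tumours, fibroblasts rich in cytokines, chemokines and complement are called inflammatory, and fibroblasts rich in collagens, matrix proteases and TGF-beta response genes are called matrix or myofibroblastic. Ly6C, encoded by Ly6c1 and Ly6c2, is a small surface protein carried by some fibroblasts and by monocytes and endothelium. NCAM, encoded by Ncam1, is an adhesion molecule known from nerve and muscle.

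Values are CPM, reads assigned to a gene scaled to the same total in every library, given in the order of animals 27, 30 and 31. The 6 libraries held 44452041 to 52649329 reads assigned to genes, so 1 read was worth 0.0190 to 0.0225 CPM. Between 13488 and 13761 genes reached 1 CPM in the iCAF libraries and between 14187 and 14566 in the mCAF libraries. The fold changes are differences of log2(CPM + 1), iCAF minus mCAF, so a positive value is higher in iCAF. They understate the change of genes near 1 CPM. The SE is that of the limma fit, and adjusted p-values are Benjamini-Hochberg values of that fit over 15456 genes. The 3 libraries of a population carry different animal numbers. The p-values rest on the spread left after population and animal differences are removed. That spread is pooled over the 12 libraries and drawn toward its trend over all genes.

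The Ly6C transcripts followed the gates, and Ncam1 was higher in the population that was not gated on NCAM. Ly6c1 stood at 1004, 1266 and 1049 CPM in iCAF against 53.9, 81.3 and 63.7 CPM in mCAF (log2 fold change 4.05, SE 0.20, adjusted p = 2.57e-07). Ly6c2 stood at 35.9, 41.6 and 39.5 CPM in iCAF against 2.44, 2.9 and 2.49 CPM in mCAF. The 3 iCAF libraries were above the 3 mCAF libraries for both genes, which are close paralogs whose reads could be split between them. Ncam1 was higher in iCAF, at 105, 102 and 82.6 CPM, than in mCAF, at 30.0, 26.1 and 37.2 CPM (log2 fold change 1.61, SE 0.13, adjusted p = 3.89e-06), and averaged 585 CPM in NCAM-positive mCAF. Ncam1 RNA in iCAF, which were not gated on NCAM, therefore lay above the NCAM-negative cells and below the NCAM-positive cells.

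Pdgfrb, the receptor on which both gates were drawn, stood at 168, 159 and 237 CPM in iCAF against 907, 491 and 674 CPM in mCAF (log2 fold change -1.85, SE 0.17, adjusted p = 6.99e-06). Pdgfra stood at 358, 448 and 402 CPM in iCAF against 555, 586 and 468 CPM in mCAF and did not pass the test (adjusted p = 0.0568 by limma), although the iCAF gate was not drawn on PDGFRa. Mcam, which encodes CD146, stood at 2.51, 1.38 and 6.43 CPM in iCAF against 4.66, 4.97 and 19.8 CPM in mCAF, far below the 269 CPM mean of the CD146-positive libraries. Its difference (adjusted p = 0.0151 by limma) did not pass without the mCAF library of animal 31, without the iCAF library of animal 30 or without animal 30. It also did not pass with no filter on low values or without the pairing by animal. Of 11 general fibroblast genes tested, 4 were higher in iCAF (36.4%, against 10.3% of all genes), 2 were higher in mCAF (18.2%, against 24.5%) and 5 did not pass, with a median log2 fold change of 0.18. The 4 became 2 without animal 30 and 1 without animal 31. The summed level of the list was 75822 to 80331 CPM in iCAF and 78348 to 98318 CPM in mCAF.

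Epithelial and macrophage RNA was higher in mCAF, as set out here before the results it touches. All 24 epithelial genes were higher in mCAF (100%, against 24.5% of all genes). Their summed level was 1457 to 4066 CPM in iCAF and 7393 to 16247 CPM in mCAF, 4.00 to 7.03 times as high within an animal. Csn3, a milk casein, stood at 593, 606 and 1560.5 CPM in iCAF against 3832, 2624 and 6209 CPM in mCAF. Epcam, the marker the gates excluded, stood at 44.6, 54.1 and 115 CPM in iCAF against 339, 281 and 519.5 CPM in mCAF (log2 fold change -2.47, SE 0.29, adjusted p = 4.68e-05). All 17 tested macrophage and monocyte genes were also higher in mCAF (100%, against 24.5%), with sums of 111 to 246 CPM in iCAF and 693 to 1098 CPM in mCAF. Cd14 stood at 49.2, 68.6 and 147 CPM in iCAF against 393, 426 and 694 CPM in mCAF. Of 15 endothelial genes 12 were higher in mCAF, with sums of 298 to 455 CPM against 396 to 816 CPM. Ptprc, which encodes CD45, stood at 0.76, 0.55 and 0.851 CPM in iCAF against 3.72, 2.9 and 4.29 CPM in mCAF. No epithelial or macrophage list member was at 0 in all 6 libraries. Smaller sums of Schwann cell, erythroid, lymphocyte and neutrophil genes were also higher in mCAF in each animal. Schwann cell sums were 29.5 to 52.25 CPM in iCAF and 92.1 to 176 CPM in mCAF. Erythroid sums were 15.8 to 54.4 CPM and 57.4 to 94.8 CPM. Pericyte, adipocyte, mesothelial and skeletal muscle sums differed in direction between animals.

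**Figure D1:**
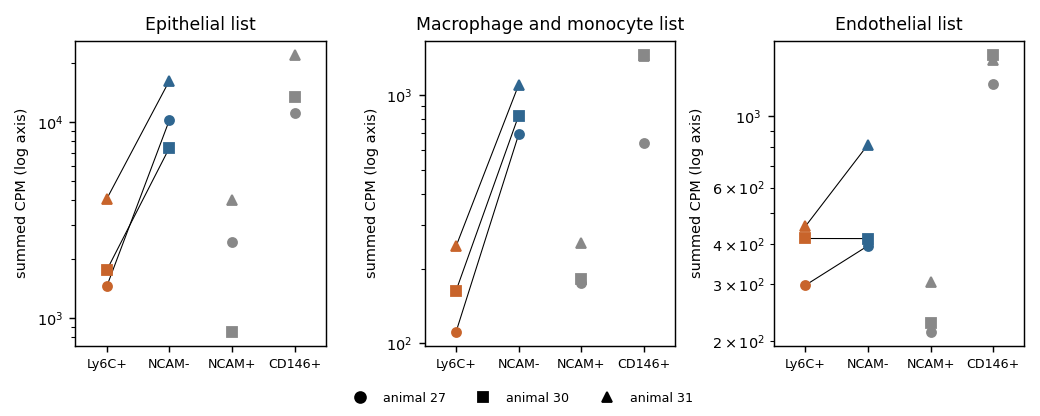
Summed CPM (log axis) of the epithelial, macrophage and endothelial gene lists in each library, with lines joining the iCAF (Ly6C+) and mCAF (NCAM-) libraries of 1 animal. The epithelial and macrophage sums were higher in mCAF in each of the 3 animals. In grey are the NCAM-positive mCAF, whose epithelial sums (855 to 3990 CPM) reached below and overlapped those of iCAF, and the CD146-positive CAF, whose sums (11071 to 22086 CPM) reached above mCAF.

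The same lists were summed in the other gates. NCAM-positive mCAF had epithelial sums of 855 to 3990 CPM and macrophage sums of 175 to 255 CPM, both overlapping those of iCAF, while CD146-positive CAF had 11071 to 22086 CPM and 640 to 1452 CPM. The mean in both is given below beside genes higher in mCAF. In bulk libraries, fewer cells of a type and less RNA per cell cannot be told apart.

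Of the 15456 genes tested, 1593 were higher in iCAF (10.3%) and 3794 were higher in mCAF (24.5%), together 34.9%. Of these, 1577 and 3763 differed in the same direction in all 3 animals, and 1441 and 3407 showed no overlap between the 3 iCAF and the 3 mCAF libraries. Direction and overlap were counted only among called genes, and the test itself favours genes with both traits. They therefore add no separate evidence for the calls. The fitted fold change, as defined above, was at least 2-fold for 604 genes higher in iCAF and 1694 higher in mCAF. It was at least 8-fold for 52 and 41. These counts do not use ratios of mean CPM, which are larger for some genes of low level. The balance between directions depended on the scaling. TMM factors moved the median log2 fold change by 0.13 toward iCAF and median-of-ratios factors by 0.15, against a median of -0.12 over all genes, and the counts became 2422 and 3066 with TMM and 2552 and 3003 with median-of-ratios. Without the 4 libraries of animal 27, 964 genes were higher in iCAF and 2601 in mCAF.

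With the log2 epithelial sum as a covariate, 79 genes were higher in iCAF and 64 in mCAF. In that fit the standard error of a gene was, by the median, 2.69 times as large. Of the genes called without the covariate, 92.3% of those higher in iCAF and 93.4% of those higher in mCAF kept their sign, and their log2 fold changes were, by the median, 0.859 and 0.839 of those without it. Among the 3794 genes higher in mCAF, the NCAM-positive mCAF mean was above the iCAF mean for 2739, and the CD146-positive mean was at or above the mCAF mean for 2672. Among the 1593 genes higher in iCAF, the NCAM-positive mCAF mean was below the iCAF mean for 1520. In the accounts that follow, genes that passed the test with the covariate are named, and most others did not pass with it. Of the 22 adventitial genes described below, 7 were called with it, and no other list had more than 2 members called in 1 direction.

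**Figure D2:**
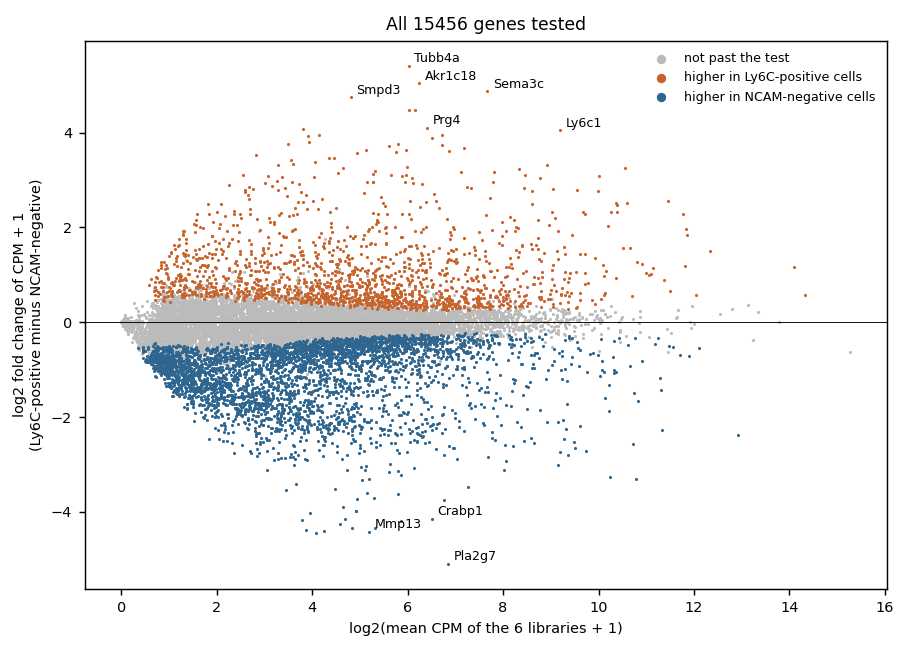
Log2 fold change (iCAF minus mCAF) of each of the 15456 genes tested against the log2 mean CPM of the 6 libraries. Orange points are the 1593 genes higher in iCAF, blue points the 3794 genes higher in mCAF, grey points did not pass the test, and a few genes of the text are named.

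The 12 genes with the largest differences toward iCAF were Tubb4a, Akr1c18, Sema3c, Smpd3, Il1r2, Ifi27l2a, Prg4, Krtdap, Ly6c1, Opcml, Lgi3 and Gpr1, with log2 fold changes of 3.93 to 5.41, and 9 of the 12 also passed with the epithelial covariate (all but Prg4, Krtdap and Opcml). Sema3c (ENSMUSG00000028780, chr5:17574281-17730268 of mm10), a secreted semaphorin that guides axons and vessels, stood at 411, 471 and 299 CPM in iCAF against 13.3, 14.7 and 9.37 CPM in mCAF (log2 fold change 4.87, SE 0.18, adjusted p = 6.95e-08). Tubb4a, a beta-tubulin, stood at 140.3, 141 and 94.9 CPM in iCAF against 4.75, 1.08 and 1.08 CPM in mCAF (log2 fold change 5.41, SE 0.28, adjusted p = 2.57e-07). It averaged 51.7 CPM in CD146-positive CAF and 1.36 CPM in NCAM-positive mCAF, so among the 4 gates NCAM-negative and NCAM-positive mCAF shared the low level.

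Akr1c18, an aldo-keto reductase that inactivates progesterone, stood at 143, 209 and 82.6 CPM in iCAF against 4.2, 7.54 and 0.608 CPM in mCAF (log2 fold change 5.04, SE 0.33, adjusted p = 1.04e-06). Smpd3, a neutral sphingomyelinase, stood at 55.8, 56.0 and 46.4 CPM in iCAF against 1.2, 2.47 and 0.038 CPM in mCAF (log2 fold change 4.75, SE 0.28, adjusted p = 5.15e-07). Il1r2, the decoy receptor that binds interleukin-1 without signalling, stood at 87.9, 164 and 153 CPM in iCAF against 4.92, 6.52 and 3.48 CPM in mCAF (log2 fold change 4.49, SE 0.27, adjusted p = 5.55e-07). No iCAF library overlapped an mCAF library for these 3 genes, which was a condition of their choice. Prg4, which encodes the joint lubricant lubricin, stood at 203, 132 and 144 CPM in iCAF against 6.92, 11 and 7.12 CPM in mCAF, and Opcml, a surface adhesion molecule, at 183, 249 and 161 CPM in iCAF against 10.4, 19.8 and 7.43 CPM in mCAF. Krtdap varied most among the iCAF libraries, at 26.8, 44.6 and 5.54 CPM, and was at 0.0871, 0.54 and 0.038 CPM in mCAF. Lgi3, a secreted leucine-rich protein, stood at 28.5, 47.3 and 20.7 CPM in iCAF against 0.653, 2.45 and 0.494 CPM in mCAF, and Gpr1, a receptor for the chemoattractant chemerin, at 20.4, 36.1 and 25.6 CPM in iCAF against 0.261, 1.39 and 0.969 CPM in mCAF.

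The 12 largest differences toward mCAF were those of Pla2g7, Plk5, Mmp13, Nos1, Col26a1, Col7a1, Fcgr2b, Lamc3, Angpt2, Col13a1, Crabp1 and Stra6, with log2 fold changes of -5.09 to -4.14, and Pla2g7, Col7a1, Fcgr2b, Angpt2, Col13a1 and Stra6 also passed with the epithelial covariate. Pla2g7 (ENSMUSG00000023913, chr17:43568098-43612201 of mm10), the phospholipase that degrades platelet-activating factor, stood at 4.84, 3.3 and 8.41 CPM in iCAF against 168, 334 and 166 CPM in mCAF (log2 fold change -5.09, SE 0.30, adjusted p = 5.15e-07). It averaged 105 CPM in NCAM-positive mCAF and 81.8 CPM in CD146-positive CAF, so iCAF were the low gate of the 4.

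Mmp13, a collagenase, stood at 1.65, 0.373 and 5.7 CPM in iCAF against 103, 30.8 and 71.5 CPM in mCAF (log2 fold change -4.42, SE 0.55, adjusted p = 7.21e-05), and averaged 212 CPM in NCAM-positive mCAF and 3.34 CPM in CD146-positive CAF. Crabp1, which binds retinoic acid in the cytoplasm, stood at 14.9, 1.81 and 14.0 CPM in iCAF against 265, 84.5 and 164 CPM in mCAF (log2 fold change -4.15, SE 0.28, adjusted p = 1.45e-06), with 255 CPM and 2.8 CPM in those gates. Stra6, the receptor that takes up retinol, stood at 1.88, 0.944 and 2.04 CPM in iCAF against 73.9, 30.4 and 39.1 CPM in mCAF (log2 fold change -4.14, SE 0.22, adjusted p = 3.38e-07), with 67.0 CPM and 0.932 CPM. These 3 genes had high means in both mCAF gates and low means in iCAF and CD146-positive CAF, and Mmp13 (adjusted p = 0.351 by limma) and Crabp1 (0.0670) lost their calls with the epithelial covariate.

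Angpt2, a vessel-destabilising ligand of the receptor Tie2, stood at 3.44, 4.93 and 7.27 CPM in iCAF and was even among the mCAF libraries, at 106, 109 and 112 CPM (log2 fold change -4.19, SE 0.16, adjusted p = 7.98e-08). Its mean was 245 CPM in CD146-positive CAF and 78.1 CPM in NCAM-positive mCAF. Fcgr2b, an inhibitory receptor for immunoglobulin G, stood at 1.5, 0.767 and 2.95 CPM in iCAF against 69.1, 33.4 and 58.1 CPM in mCAF. It is known from macrophages and B cells. It averaged 45.2 CPM in NCAM-positive mCAF and 7.32 CPM in CD146-positive CAF. The part of macrophage RNA in its level was not tested. The collagen genes Col7a1, Col13a1 and Col26a1 stood at 76.6, 62.5 and 84.1 CPM, 26.3, 29.3 and 19.9 CPM and 35.5, 18.5 and 26.8 CPM in mCAF. Their highest iCAF values were 4.28 CPM, 0.653 CPM and 0.554 CPM. Nos1, a nitric oxide synthase, was uneven within mCAF at 21.4, 68.7 and 16.3 CPM and stood at 0.494, 0.373 and 0.376 CPM in iCAF.

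Promoter sequences are shown for 2 genes of each direction, all among the 12 largest differences that way, so that their start regions can be compared directly. The 4 were chosen after their values were seen. They are RefSeq sequences of build GRCm38.p6, 250 bases before to 50 after the start, read 5′ to 3′ on the gene's strand. Capitals mark matches, on either strand and overlaps allowed, to 3 motifs. The AP-1 motif was searched as TGANTCA. The letters searched for RUNX factors were TGTGGT. The box bound by the TATA-binding protein was searched as TATAAA. Of the 24 genes named above, 17 had an entry in the table, 8 toward iCAF and 9 toward mCAF.
Ly6c1, chr15:75048788-75049087, minus strand: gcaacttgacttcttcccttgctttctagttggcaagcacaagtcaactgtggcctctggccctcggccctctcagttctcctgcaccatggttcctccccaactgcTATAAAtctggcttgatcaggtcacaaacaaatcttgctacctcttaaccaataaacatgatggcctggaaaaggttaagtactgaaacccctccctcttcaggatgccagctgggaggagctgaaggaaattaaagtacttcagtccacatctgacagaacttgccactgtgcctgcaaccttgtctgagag
Sema3c, chr5:17574566-17574865, plus strand: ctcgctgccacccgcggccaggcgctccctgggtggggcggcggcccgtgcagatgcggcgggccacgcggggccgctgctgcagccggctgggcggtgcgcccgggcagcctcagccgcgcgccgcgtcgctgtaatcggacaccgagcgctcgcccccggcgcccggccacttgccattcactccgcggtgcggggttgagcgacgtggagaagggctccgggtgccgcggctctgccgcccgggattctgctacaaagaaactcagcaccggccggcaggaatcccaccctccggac
Mmp13, chr9:7272264-7272563, plus strand: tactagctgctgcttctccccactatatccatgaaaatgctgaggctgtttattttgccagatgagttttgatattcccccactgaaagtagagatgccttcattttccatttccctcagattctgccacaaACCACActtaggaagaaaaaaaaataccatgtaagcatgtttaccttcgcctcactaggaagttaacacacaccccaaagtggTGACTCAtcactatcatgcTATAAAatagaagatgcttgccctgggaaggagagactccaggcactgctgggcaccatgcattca
Crabp1, chr9:54764498-54764797, plus strand: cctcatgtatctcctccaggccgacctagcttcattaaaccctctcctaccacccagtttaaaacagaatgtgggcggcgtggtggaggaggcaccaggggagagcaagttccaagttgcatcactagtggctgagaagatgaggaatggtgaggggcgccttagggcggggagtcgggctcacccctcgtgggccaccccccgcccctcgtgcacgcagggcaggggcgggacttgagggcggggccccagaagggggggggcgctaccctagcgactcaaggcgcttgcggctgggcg

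Mmp13 was the only one of these 4 whose window held all 3 motifs, with the RUNX letters 118 to 113 bases, the AP-1 letters 35 to 29 bases and the TATA letters 16 to 11 bases before the start. Ly6c1 held TATA letters 143 to 138 bases before the start, and the Sema3c and Crabp1 windows held none of the 3. Over 27025 promoters of this length, the first listed for each gene symbol, 7.93% held AP-1 letters, 16.9% RUNX letters and 14.2% TATA letters. Ly6c1, Gpr1 and Stra6 had 2, 2 and 4 listed promoters, and only the first of each was searched. Among the promoters of the genes above, AP-1 letters were found in 1 of 8 toward iCAF (Krtdap) and 1 of 9 toward mCAF (Mmp13), and RUNX letters in 0 of 8 and 2 of 9 (Mmp13 and Stra6). TATA letters were found in 3 of 8 (Gpr1, Krtdap and Ly6c1) and 2 of 9 (Mmp13 and Col13a1). These matches describe the letters of the windows and name no site in use.

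The adventitial gene list was higher in iCAF throughout. All 22 of its members were tested and all 22 were higher in iCAF, with a median log2 fold change of 2.43, against 10.3% of all genes and a median of -0.12. The list was drawn up with earlier results of these libraries known, so its direction is a description. Pi16, a secreted peptidase inhibitor, stood at 1876, 2928 and 2411 CPM in iCAF against 757, 540.0 and 1231 CPM in mCAF (log2 fold change 1.57, SE 0.26, adjusted p = 5.36e-04). Dpp4, a surface peptidase, stood at 381, 459 and 361 CPM in iCAF against 42.1, 61.5 and 31.4 CPM in mCAF (log2 fold change 3.17, SE 0.24, adjusted p = 2.36e-06), and Ly6a, which encodes Sca-1, at 1665, 2147 and 1727 CPM in iCAF against 212, 322 and 145 CPM in mCAF. Cd34, a sialomucin of progenitor cells, stood at 1775, 2227 and 1638 CPM in iCAF against 428, 644 and 348 CPM in mCAF.

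Gfpt2, an enzyme of hexosamine synthesis, stood at 1756, 2042 and 1465 CPM in iCAF against 248, 339 and 199 CPM in mCAF (log2 fold change 2.76, SE 0.12, adjusted p = 8.94e-08). Procr, the endothelial protein C receptor, stood at 71.5, 150.3 and 111 CPM in iCAF against 10.6, 14.5 and 9.63 CPM in mCAF (log2 fold change 3.11, SE 0.16, adjusted p = 2.57e-07), and Efhd1, a mitochondrial calcium-binding protein, at 101, 167 and 75.9 CPM in iCAF against 7.03, 10.3 and 6.71 CPM in mCAF (log2 fold change 3.62, SE 0.18, adjusted p = 2.57e-07). Anxa3, Sema3c, Efhd1, Smpd3, Procr, Gfpt2 and Cd248 also passed with the epithelial covariate, and all 22 members kept their sign. The groups overlapped for Igfbp6, at 1062, 2479.9 and 998 CPM in iCAF against 568, 1079 and 346 CPM in mCAF, and for Scara5, at 310.4, 555 and 464 CPM in iCAF against 100.04, 328 and 100.49 CPM in mCAF. Efemp1, a fibulin, was uneven within mCAF, at 339, 958 and 164 CPM, with the highest value in animal 30, and stood at 2159, 2260.4 and 2059.8 CPM in iCAF.

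**Figure D3:**
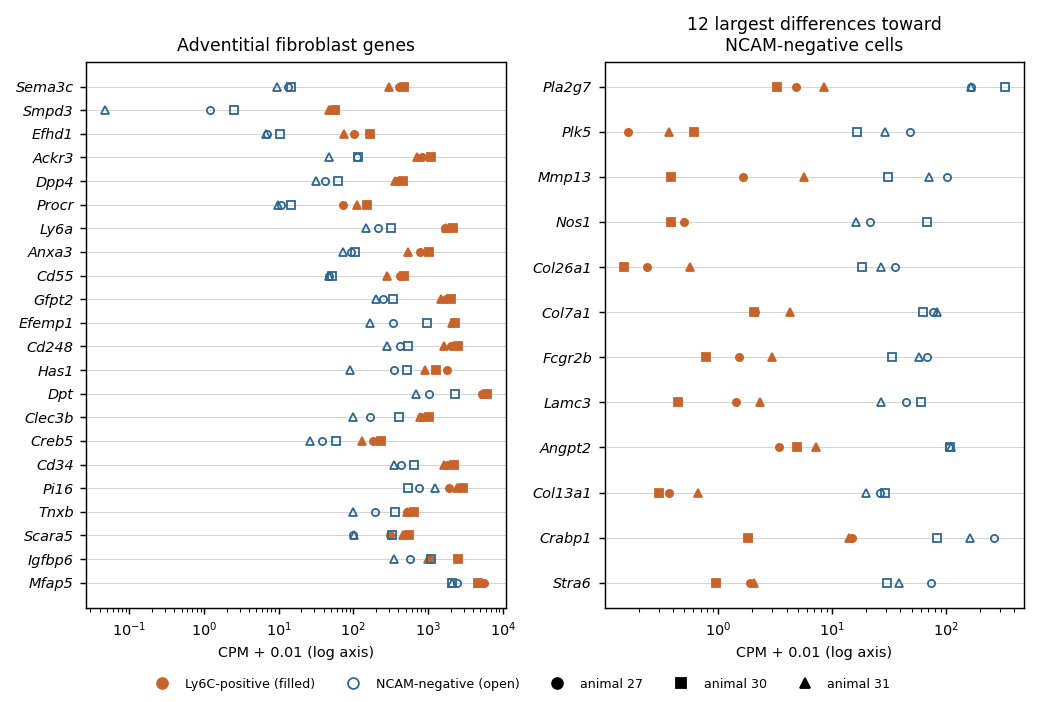
CPM + 0.01 (log axis) of the 22 adventitial genes (left) and of the 12 genes with the largest differences toward mCAF (right) in each library. Filled orange marks are iCAF, open blue marks are mCAF, and the mark's shape gives the animal. The groups overlap for Igfbp6 and Scara5 on the left. The 12 genes on the right were chosen to have no overlap.

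Secreted immune signals were divided between the populations. Of 16 chemokine entries tested, 5 were higher in iCAF (31.2%, against 10.3% of all genes), 2 were higher in mCAF (12.5%, against 24.5%) and 9 did not pass (median 0.20). Ccl2 and Ccl7, neighbouring genes whose products attract monocytes, stood at 947, 253 and 302 CPM in iCAF against 183, 108 and 55.4 CPM in mCAF (log2 fold change 2.00, SE 0.30, adjusted p = 2.62e-04) and at 528, 195 and 125 CPM in iCAF against 52.5, 41.3 and 15.3 CPM in mCAF (log2 fold change 2.82, SE 0.27, adjusted p = 9.64e-06). For both, the iCAF library of animal 27 was the highest. Cxcl1, which attracts neutrophils, stood at 442, 267 and 260.4 CPM in iCAF against 179.9, 133 and 129 CPM in mCAF (log2 fold change 1.10, SE 0.15, adjusted p = 1.44e-04), and Cxcl13, which attracts B cells, at 12.4, 15.3 and 39.4 CPM in iCAF against 4.18, 1.44 and 0.608 CPM in mCAF. Cxcl12, the ligand of CXCR4, was higher in iCAF in 2 animals and lower in animal 30, at 993, 674 and 1262 CPM in iCAF against 392, 837 and 284 CPM in mCAF. Its adjusted p of 0.0297 by limma became as high as 0.355 over the alternatives other than the covariate, highest where the animal 31 libraries were left out. Cx3cl1, the membrane-bound chemokine fractalkine, was higher in mCAF at 19.8, 15.1 and 33.5 CPM in iCAF against 112, 89.5 and 134 CPM in mCAF (log2 fold change -2.30, SE 0.19, adjusted p = 4.66e-06), averaged 127 CPM in NCAM-positive mCAF, and passed with the covariate too.

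Of 23 cytokine and receptor genes tested, 10 were higher in iCAF (43.5%, against 10.3% of all genes), 5 in mCAF (21.7%, against 24.5%) and 8 did not pass (median 0.54). Il6, the cytokine often used to define inflammatory fibroblasts, stood at 62.5, 41.8 and 36.8 CPM in iCAF against 22.9, 24.7 and 18.4 CPM in mCAF (log2 fold change 1.04, SE 0.17, adjusted p = 4.28e-04). Its mean was 106 CPM in CD146-positive CAF, and with the epithelial covariate its log2 fold change was 0.10. Il1rl1, the receptor of interleukin-33, stood at 27.4, 24.0 and 9.86 CPM in iCAF against 1.87, 0.922 and 0.152 CPM in mCAF (log2 fold change 3.41, SE 0.30, adjusted p = 6.79e-06), and its ligand gene Il33 was also higher in iCAF, by 1.44. Il1r1, the signalling receptor of interleukin-1, stood at 89.9, 93.1 and 106 CPM in iCAF against 48.1, 50.2 and 39.2 CPM in mCAF, and the macrophage growth factor Csf1 at 752, 759 and 604 CPM in iCAF against 420.2, 301 and 276 CPM in mCAF. Il34, the other ligand of the CSF1 receptor, went the other way at 84.5, 77.5 and 68.0 CPM in iCAF against 309, 106 and 242 CPM in mCAF (log2 fold change -1.38, SE 0.23, adjusted p = 6.54e-04). Lifr, the receptor of LIF, was also higher in mCAF at 41.3, 34.2 and 56.1 CPM in iCAF against 95.1, 81.6 and 97.2 CPM in mCAF.

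Of 17 complement genes tested, 10 were higher in iCAF (58.8%, against 10.3% of all genes), 4 in mCAF (23.5%, against 24.5%) and 3 did not pass (median 0.62), and the number higher in iCAF was 5 without animal 31, 6 without its iCAF library alone and 6 without animal 27. C3 (ENSMUSG00000024164, chr17:57203970-57228136 of mm10), the central component, stood at 2493, 2414 and 3215 CPM in iCAF against 318, 264 and 265 CPM in mCAF (log2 fold change 3.25, SE 0.21, adjusted p = 8.49e-07) and passed with the covariate. C4b stood at 2331, 2246 and 3285 CPM in iCAF against 331, 634 and 439 CPM in mCAF and Cfb, the protease subunit of the alternative pathway convertase, at 24.2, 21.7 and 23.3 CPM in iCAF against 3.11, 3.08 and 3.19 CPM in mCAF. Cd55, which speeds the decay of convertases on the cell surface, stood at 424, 473 and 278 CPM in iCAF against 47.5, 52.0 and 46.6 CPM in mCAF. Cd59a, which blocks the membrane attack complex, was higher in mCAF at 9.76, 10.0 and 22.0 CPM in iCAF against 113, 62.8 and 117 CPM in mCAF (log2 fold change -2.77, SE 0.25, adjusted p = 6.81e-06) and highest, at a mean of 207 CPM, in NCAM-positive mCAF. The receptors C5ar1 and C3ar1, known from myeloid cells, stood at 1.54, 1.83 and 4.32 CPM in iCAF against 10.9, 23.3 and 17.6 CPM in mCAF and 0.627, 0.315 and 1.23 CPM in iCAF against 2.85, 8.12 and 4.31 CPM in mCAF, and the part of macrophage RNA in this was not tested.

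Of 15 prostaglandin genes tested, 6 were higher in iCAF (40%, against 10.3% of all genes), 2 were higher in mCAF (13.3%, against 24.5%) and 7 did not pass. Ptgs1 and Ptgs2, the cyclooxygenases, stood at 128, 127 and 72.2 CPM in iCAF against 19.0, 23 and 25.6 CPM in mCAF and at 33.7, 30.7 and 23.3 CPM in iCAF against 13.7, 3.82 and 10.5 CPM in mCAF. Hpgd, which inactivates prostaglandins, stood at 87.0, 134 and 48.1 CPM in iCAF against 9.75, 12.5 and 5.32 CPM in mCAF (log2 fold change 3.11, SE 0.30, adjusted p = 1.27e-05) and passed with the covariate. The receptor Ptger4 stood at 10.7, 4.32 and 7.54 CPM in iCAF against 27.2, 17.3 and 20.6 CPM in mCAF (log2 fold change -1.46, SE 0.19, adjusted p = 8.09e-05).

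The abundant fibrillar collagens Col1a1 and Col3a1 went opposite ways, and only Col3a1 passed the test. Col1a1 stood at 30847, 31785 and 30198 CPM in iCAF against 58496, 44741 and 42550 CPM in mCAF (adjusted p = 0.0612 by limma), with no overlap, and passed by edgeR on recovered reads and with a pseudocount of 0.1. It averaged 101470 CPM in NCAM-positive mCAF. Of 11 fibrillar collagen genes, 4 were higher in mCAF (36.4%, against 24.5% of all genes), 1 was higher in iCAF (9.09%, against 10.3%) and 6 did not pass. Col11a1, a minor fibril collagen known from cartilage and tumour stroma, stood at 7.27, 2.71 and 16.4 CPM in iCAF against 62.9, 28.8 and 79.7 CPM in mCAF (log2 fold change -2.72, SE 0.34, adjusted p = 7.01e-05) and passed with the covariate. Col24a1, at 0.627, 0.609 and 0.317 CPM in iCAF against 6.36, 4.18 and 4.46 CPM in mCAF, had a log2 fold change of -0.03 with the covariate. Col3a1, at 23197, 23934 and 26520 CPM in iCAF against 15270, 20340 and 14215 CPM in mCAF (log2 fold change 0.58, SE 0.19, adjusted p = 0.0359), did not overlap between the groups and lost its call in 11 of the other alternatives.

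Of 11 fibril-associated and network collagens, 2 were higher in iCAF and 5 in mCAF, shares of 18.2% and 45.5% beside 10.3% and 24.5% of all genes. None was higher in mCAF without animal 27, and 3 were without its mCAF library alone. Col14a1, which binds fibril surfaces, stood at 1463, 1470.5 and 1273 CPM in iCAF against 321, 324 and 226 CPM in mCAF (log2 fold change 2.28, SE 0.19, adjusted p = 3.89e-06). The collagen VI genes Col6a1 and Col6a2 stood at 2817, 2870.3 and 2860.5 CPM in iCAF against 6003, 3895 and 4305 CPM in mCAF and 1024, 1130.1 and 1164 CPM in iCAF against 2614, 1667 and 2106 CPM in mCAF, with log2 fold changes of -0.71 and -0.92 that became 0.11 and 0.12 with the covariate. Among contractile genes, 2 of 18 were higher in iCAF and 5 in mCAF, shares of 11.1% and 27.8% that were near the 10.3% and 24.5% of all genes. Acta2, smooth muscle actin, stood at 40.5, 20.7 and 57.7 CPM in iCAF against 69.0, 26.6 and 95.1 CPM in mCAF and did not pass (adjusted p = 0.116 by limma). Its mean was 218 CPM in NCAM-positive mCAF and 1921 CPM in CD146-positive CAF, so both populations were low in the series. Palld, an actin-bundling protein, was higher in mCAF at 203, 152 and 172 CPM in iCAF against 525, 401 and 303 CPM in mCAF (log2 fold change -1.19, SE 0.19, adjusted p = 3.55e-04).

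Of 22 collagen-processing genes, 8 were higher in iCAF (36.4%, against 10.3% of all genes) and 3 in mCAF (13.6%, against 24.5%). Pcolce2, an enhancer of procollagen C-proteinase, stood at 531, 610.4 and 563 CPM in iCAF against 45.7, 150.0 and 29.8 CPM in mCAF (log2 fold change 3.24, SE 0.36, adjusted p = 2.84e-05), and the cross-linking enzymes Loxl2 and Loxl4 at 58.1, 65.2 and 46.5 CPM in iCAF against 25.0, 36.0 and 16.8 CPM in mCAF and 35.4, 28.9 and 33.4 CPM in iCAF against 8.05, 4.66 and 10.3 CPM in mCAF. P4ha3, a prolyl hydroxylase subunit, stood at 64.4, 102 and 54.0 CPM in iCAF against 20.0, 18.1 and 17.4 CPM in mCAF and passed with the covariate. Plod1, a lysyl hydroxylase, was higher in mCAF at 214, 222 and 239 CPM in iCAF against 358, 371 and 337 CPM in mCAF.

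Of 31 matrix proteases and inhibitors, 10 were higher in iCAF and 10 in mCAF, 32.3% each way beside 10.3% and 24.5% of all genes. The matrix metalloproteinases Mmp2, Mmp3, Mmp10, Mmp11, Mmp13 and Mmp14 were higher in mCAF, with log2 fold changes from -4.42 to -0.70, and Mmp23 was higher in iCAF (0.67). Mmp11, called stromelysin-3, stood at 94.1, 136 and 201 CPM in iCAF against 624, 1743 and 715 CPM in mCAF (log2 fold change -2.74, SE 0.29, adjusted p = 2.16e-05). The protease inhibitor Serpine2 stood at 486, 327 and 483 CPM in iCAF against 3961, 1062 and 3803 CPM in mCAF (log2 fold change -2.56, SE 0.34, adjusted p = 1.22e-04). The inhibitor Timp2 went toward iCAF at 495, 838 and 622 CPM in iCAF against 128, 328 and 150.4 CPM in mCAF (log2 fold change 1.78, SE 0.17, adjusted p = 1.13e-05) and passed with the covariate. The aggrecanase Adamts5 was higher in iCAF at 537, 512 and 448 CPM in iCAF against 170.5, 256 and 94.3 CPM in mCAF. Adamts4, the other aggrecanase, was higher in mCAF at 68.3, 45.7 and 60.9 CPM in iCAF against 140.2, 147 and 133 CPM in mCAF.

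In the matricellular list, 7 of 24 genes were higher in iCAF (29.2%, against 10.3% of all genes) and 9 in mCAF (37.5%, against 24.5%). Spon1, an extracellular adhesion protein, stood at 163, 205 and 283 CPM in iCAF against 2926, 1193 and 2454 CPM in mCAF (log2 fold change -3.27, SE 0.23, adjusted p = 1.71e-06), and Lrrc15, a membrane protein of TGF-beta-driven tumour fibroblasts, at 121, 65.6 and 153 CPM in iCAF against 905, 355 and 790.3 CPM in mCAF (log2 fold change -2.56, SE 0.19, adjusted p = 2.22e-06). Postn, which encodes periostin, had a log2 fold change of -1.43. The NCAM-positive mCAF mean was higher still, at 3744 CPM for Spon1, 1661 CPM for Lrrc15 and 6375 CPM for Postn, while CD146-positive CAF averaged 279, 25.7 and 538 CPM. Spp1, which encodes osteopontin and is also made by macrophages and tumour epithelium, stood at 191, 159 and 853 CPM in iCAF against 2055, 2602 and 4700.3 CPM in mCAF (log2 fold change -3.30, SE 0.38, adjusted p = 3.80e-05) and averaged 3878 CPM in CD146-positive CAF. The part of other cells' RNA in it was not tested. Fn1, fibronectin, went toward iCAF at 5917, 6211 and 5228 CPM in iCAF against 1769, 2064 and 1149 CPM in mCAF (log2 fold change 1.84, SE 0.18, adjusted p = 1.31e-05) and passed with the covariate. Ccn3, Thbs3 and Cthrc1 stood at 142, 75.0 and 79.0 CPM, 477, 525 and 486 CPM and 632, 380.5 and 419.6 CPM in iCAF and at 7.4, 12.6 and 3.25 CPM, 113, 213 and 78.4 CPM and 139, 149 and 88.6 CPM in mCAF.

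Small leucine-rich proteoglycans, which bind collagen fibrils, were higher in iCAF in 3 of 11 cases (27.3%, against 10.3% of all genes) and in mCAF in 6 (54.5%, against 24.5%). The second count was 2 under TMM scaling, 2 without animal 27, 3 without animal 30, and 3 without the mCAF library of animal 27 or without any 1 of the iCAF libraries. Ogn stood at 505, 811 and 494 CPM in iCAF against 83.2, 126 and 50.5 CPM in mCAF (log2 fold change 2.84, SE 0.20, adjusted p = 1.72e-06), and Prelp and Aspn were higher in iCAF too (1.44 and 1.38). Fmod, fibromodulin, was higher in mCAF at 19.2, 12.3 and 18.3 CPM in iCAF against 104, 67.8 and 99.4 CPM in mCAF (log2 fold change -2.37, SE 0.29, adjusted p = 6.77e-05). Of 15 elastic fibre genes, 9 were higher in iCAF (60%, against 10.3% of all genes) and 4 in mCAF (26.7%, against 24.5%), with a median of 0.60, and 1 was higher in mCAF without animal 27. Fbn1, fibrillin-1, stood at 2278, 2596 and 1709 CPM in iCAF against 779, 616 and 805 CPM in mCAF (log2 fold change 1.57, SE 0.17, adjusted p = 2.94e-05), and Emilin2, which also passed with the covariate, at 441, 622 and 375 CPM in iCAF against 104, 183 and 58.0 CPM in mCAF. Mfap4, a microfibril protein, was higher in mCAF at 544, 657 and 795 CPM in iCAF against 1343, 1499 and 1468 CPM in mCAF.

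Of 18 basement membrane genes, 4 were higher in iCAF (22.2%, against 10.3% of all genes) and 9 in mCAF (50%, against 24.5%). Col15a1 stood at 231, 191 and 288 CPM in iCAF against 1167, 799 and 986 CPM in mCAF (log2 fold change -2.05, SE 0.15, adjusted p = 1.82e-06) and averaged 785 CPM in NCAM-positive mCAF. Col18a1 stood at 161, 136 and 159 CPM in iCAF against 462, 542 and 283 CPM in mCAF, and Lamc3, a laminin chain, at 1.42, 0.432 and 2.32 CPM in iCAF against 45.0, 61.0 and 27.2 CPM in mCAF. Nid1 and Lama4 were higher in iCAF, at 1584, 1964 and 1618 CPM in iCAF against 907, 995 and 810.1 CPM in mCAF and 339, 333 and 282 CPM in iCAF against 203, 162 and 164 CPM in mCAF. In 6 of the 9 genes higher in mCAF, the CD146-positive mean was at or above that of mCAF. This held for 2672 of all 3794 genes higher in mCAF, so it is not particular to this list.

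In the TGF-beta pathway, of 22 genes tested, 4 were higher in iCAF (18.2%, against 10.3% of all genes) and 9 in mCAF (40.9%, against 24.5%). Among ligands, Tgfb3 stood at 88.5, 79.3 and 134 CPM in iCAF against 263, 181 and 356 CPM in mCAF (log2 fold change -1.38, SE 0.16, adjusted p = 3.74e-05) and Tgfb1 at 1.2, 1.47 and 1.52 CPM in iCAF against 5.01, 3.71 and 5.89 CPM in mCAF (log2 fold change -1.28, SE 0.21, adjusted p = 4.79e-04). Among receptors, Tgfbr2 was higher in iCAF at 790.2, 1036 and 785 CPM in iCAF against 459, 494 and 407 CPM in mCAF (log2 fold change 0.93, SE 0.10, adjusted p = 2.87e-05) and Tgfbr1 was higher in mCAF at 33.4, 30.5 and 34.6 CPM in iCAF against 53.4, 55.5 and 56.5 CPM in mCAF (log2 fold change -0.73, SE 0.11, adjusted p = 3.24e-04). Pmepa1, a target gene that dampens the pathway, stood at 124, 107 and 159.6 CPM in iCAF against 267, 209 and 347 CPM in mCAF and averaged 538 CPM in NCAM-positive mCAF. Ltbp1 and Ltbp4, which hold latent TGF-beta in the matrix, were higher in iCAF (1.01 and 0.92).

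In the Wnt pathway, of 25 genes tested, 6 were higher in iCAF (24%, against 10.3% of all genes) and 8 in mCAF (32%, against 24.5%). The 6 became 2 without animal 31 and 3 without its mCAF library alone. Wnt10b stood at 7.5, 11 and 3.94 CPM in iCAF against 0.174, 0.045 and 0.019 CPM in mCAF (log2 fold change 2.89, SE 0.23, adjusted p = 3.05e-06), and Sfrp4, a secreted inhibitor, at 2345, 2129.7 and 2216 CPM in iCAF against 535, 582 and 207 CPM in mCAF (log2 fold change 2.47, SE 0.54, adjusted p = 0.00374), a call lost without animal 31. Fzd1, a receptor, stood at 34.2, 31.0 and 40.1 CPM in iCAF against 173, 123 and 138 CPM in mCAF (log2 fold change -2.01, SE 0.14, adjusted p = 1.53e-06), and Nkd2, an intracellular inhibitor, at 68.0, 33.9 and 78.3 CPM in iCAF against 615, 237 and 562 CPM in mCAF (log2 fold change -2.92, SE 0.23, adjusted p = 2.89e-06). Dkk3 stood at 112, 105 and 149 CPM in iCAF against 424, 390.2 and 412 CPM in mCAF and passed with the covariate. Of the BMP genes, 6 of 22 were higher in iCAF (27.3%, against 10.3% of all genes) and 3 in mCAF (13.6%, against 24.5%). The ligand Bmp6 stood at 22.4, 19.2 and 11.1 CPM in iCAF against 1.22, 0.99 and 1.25 CPM in mCAF (log2 fold change 3.06, SE 0.21, adjusted p = 1.45e-06), and the extracellular antagonist Chrdl1 at 61.4, 69.0 and 74.7 CPM in iCAF against 14.6, 14.9 and 10.3 CPM in mCAF. The response genes Id1 and Id2 were higher in mCAF, at 3.17, 4.91 and 6.49 CPM in iCAF against 9.16, 10.5 and 12.5 CPM in mCAF and 57.8, 56.3 and 66.5 CPM in iCAF against 153, 122 and 179 CPM in mCAF, and Id2 averaged 65.2 CPM in NCAM-positive mCAF and 164 CPM in CD146-positive CAF.

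Of 28 growth factor genes, 8 were higher in iCAF (28.6%, against 10.3% of all genes) and 6 in mCAF (21.4%, against 24.5%). Fgf2 stood at 29.6, 45.4 and 26.5 CPM in iCAF against 5.12, 5.76 and 6.38 CPM in mCAF (log2 fold change 2.33, SE 0.20, adjusted p = 4.61e-06) and passed with the covariate. Fgf7, a growth factor for epithelium, stood at 71.9, 67.6 and 76.6 CPM in iCAF against 18.4, 25.2 and 11.4 CPM in mCAF, and Pdgfd at 63.7, 80.0 and 55.2 CPM in iCAF against 10.1, 19.2 and 15.2 CPM in mCAF. Mdk, midkine, was higher in mCAF at 21.1, 36.8 and 38.8 CPM in iCAF against 154, 324 and 161 CPM in mCAF (log2 fold change -2.65, SE 0.19, adjusted p = 1.62e-06) and averaged 222 CPM in NCAM-positive mCAF and 5.94 CPM in CD146-positive CAF. Hbegf, an EGF receptor ligand, stood at 15.5, 11.4 and 11.9 CPM in iCAF against 37.5, 29.6 and 38.3 CPM in mCAF. Igfbp2 and Igfbp4 were higher in mCAF (-1.72 and -0.73).

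The series concerns senescent stroma, so genes of cell cycle arrest and p53 response were examined as a list. None of 26 was higher in iCAF, 15 were higher in mCAF (57.7%, against 24.5% of all genes) and 11 did not pass, with a median log2 fold change of -0.50. The count was 8 without animal 27 and 9 without animal 31. Cdkn2b, the CDK4 and CDK6 inhibitor p15, differed most (ENSMUSG00000073802, chr4:89306299-89311039 of mm10). It stood at 5.38, 3.24 and 11.3 CPM in iCAF against 71.6, 46.6 and 61.4 CPM in mCAF (log2 fold change -3.11, SE 0.26, adjusted p = 4.00e-06), without overlap. Its mean was 82.7 CPM in NCAM-positive mCAF and 5.92 CPM in CD146-positive CAF. It lost its call with the epithelial covariate (log2 fold change -2.88, adjusted p = 0.0897 by limma).

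Cdkn2a, whose locus encodes p16 and p19ARF, was low, at 0.114, 0.118 and 0.317 CPM in iCAF against 1.39, 0.495 and 1.42 CPM in mCAF (log2 fold change -0.80, SE 0.20, adjusted p = 0.00777), averaged 1.98 CPM in NCAM-positive mCAF, and lost its call without animal 27 or without animal 31. The table gives a value per gene, so p16 and p19ARF transcripts were not separated. Cdkn1a, which encodes p21, stood at 87.2, 103 and 110.4 CPM in iCAF against 119.7, 124 and 162 CPM in mCAF (log2 fold change -0.42, SE 0.15, adjusted p = 0.0426), and did not pass under TMM, median-of-ratios, edgeR or DESeq2. Cdkn1a also lost its call with no filter, with the covariate and without any 1 of the animals or iCAF libraries. The same held without the mCAF library of animal 30 or 31. Btg2, an antiproliferative p53 target, stood at 253, 258 and 390.4 CPM in iCAF against 847, 1068 and 1039.8 CPM in mCAF, Perp, a desmosomal p53 target of epithelium, at 5.05, 6.15 and 11.8 CPM in iCAF against 34.0, 34.1 and 53 CPM in mCAF, and Plk2 at 50.2, 42.4 and 45.1 CPM in iCAF against 99.67, 98.2 and 165 CPM in mCAF. Btg2, Perp and Plk2 averaged 1204, 53.2 and 160.5 CPM in CD146-positive CAF and 431, 8.17 and 76.1 CPM in NCAM-positive mCAF. Perp had a log2 fold change of -0.19 with the epithelial covariate, while Plk2 passed. For 9 of the 15 genes the CD146-positive mean was at or above the mCAF mean, and for 12 the NCAM-positive mCAF mean was above that of iCAF. Over all 3794 genes higher in mCAF, the same counts were 2672 and 2739, so neither is particular to this list.

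Of 28 proliferation genes, 3 were higher in mCAF and 25 did not pass, a share (10.7%) below that of all genes, and the count ranged from 0 to 12 over the alternatives without the covariate. It was highest without the mCAF library of animal 27. The 3 called, Cenpe, Mcm7 and Rrm2, overlapped between the groups. Rrm2, a ribonucleotide reductase subunit, stood at 41.7, 10.5 and 23.8 CPM in iCAF against 31.0, 31.7 and 79.7 CPM in mCAF.

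**Figure D4:**
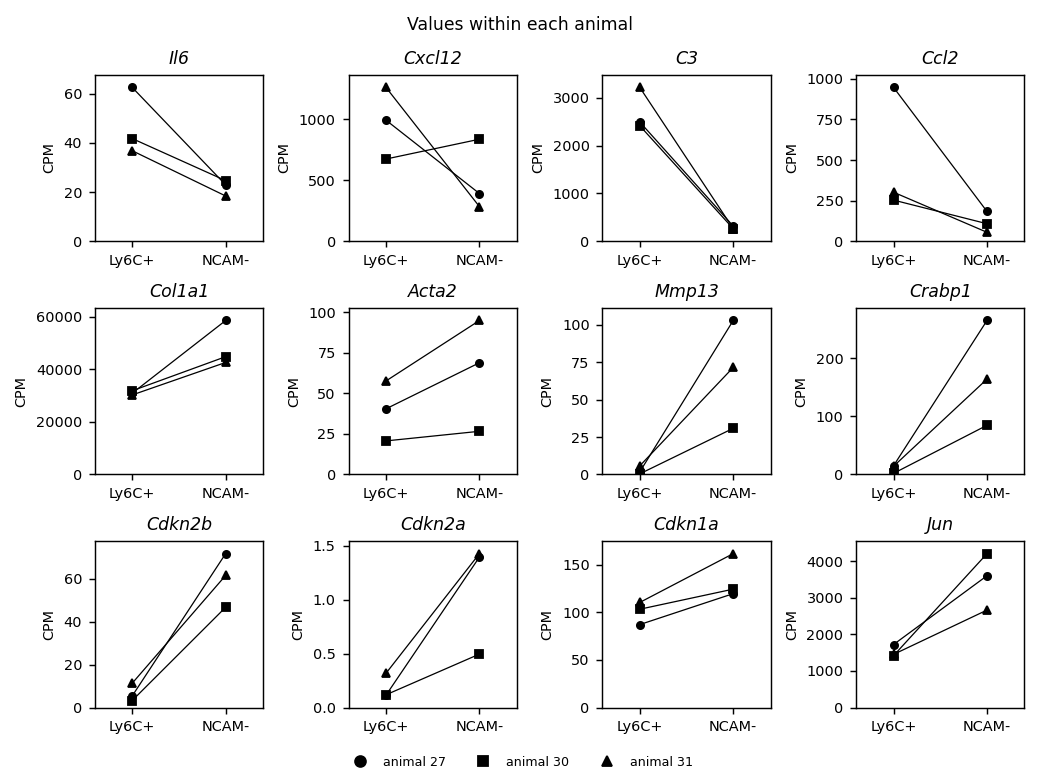
CPM of 12 genes of the text in iCAF (Ly6C+) and mCAF (NCAM-) of the same animal, joined by a line, with the mark's shape giving the animal and each axis starting at 0. Il6, C3 and Ccl2 were lower and Mmp13, Crabp1 and Cdkn2b higher in mCAF in each of the 3 animals, and Cxcl12 changed direction in animal 30. For Mmp13 and Crabp1 the same direction in all 3 animals was a condition of their choice.

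Genes of antigen presentation and immune ligands were examined next. Of 7 MHC class II genes tested, 6 were higher in mCAF (85.7%, against 24.5% of all genes), H2-Eb1 did not pass, and none was higher in iCAF (median -1.49). Cd74, the invariant chain, stood at 51.1, 85.0 and 88.8 CPM in iCAF against 399, 397 and 547 CPM in mCAF (log2 fold change -2.59, SE 0.15, adjusted p = 4.99e-07), and H2-Ab1 at 16.6, 32.0 and 24.8 CPM in iCAF against 120.4, 128 and 134 CPM in mCAF. H2-Aa stood at 11.4, 26.5 and 20.3 CPM in iCAF against 95.7, 111 and 128 CPM in mCAF (log2 fold change -2.53, SE 0.17, adjusted p = 1.45e-06), and Ciita, the activator of these genes, at 0.342, 0.472 and 0.733 CPM in iCAF against 2.5, 3.42 and 3.91 CPM in mCAF. The macrophage sums were also higher in mCAF, at 111 to 246 CPM in iCAF and 693 to 1098 CPM in mCAF. In CD146-positive CAF and NCAM-positive mCAF Cd74 averaged 516 and 74.4 CPM. The part of macrophage RNA was not tested. Cd74 and H2-Aa passed with the epithelial covariate.

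Of 26 interferon-response and MHC class I genes, 10 were higher in iCAF (38.5%, against 10.3% of all genes), 3 in mCAF (11.5%, against 24.5%) and 13 did not pass. The 10 became 3 without animal 30 or without either of its libraries, and 4 without animal 31. Ifi27l2a stood at 94.7, 202 and 75.7 CPM in iCAF against 5.88, 6.16 and 1.79 CPM in mCAF (log2 fold change 4.47, SE 0.28, adjusted p = 6.55e-07) and passed with the covariate, with its highest iCAF value in animal 30. Bst2, which tethers virions, stood at 71.3, 152 and 102 CPM in iCAF against 49.0, 49.8 and 45.0 CPM in mCAF, and Irf1 was higher in mCAF at 45.2, 45.4 and 55.0 CPM in iCAF against 99.2, 105 and 98.2 CPM in mCAF. B2m did not pass. Of 20 ligands for NK and T cells, 4 were higher in iCAF (20%, against 10.3% of all genes) and 8 in mCAF (40%, against 24.5%), and the 4 became 2 without animal 27. Nt5e, the CD73 enzyme that makes adenosine, stood at 105, 79.2 and 61.5 CPM in iCAF against 10.9, 45.4 and 13.7 CPM in mCAF (log2 fold change 2.01, SE 0.39, adjusted p = 0.00179), and Lgals9, galectin-9, at 258, 326 and 284 CPM in iCAF against 139, 123 and 144 CPM in mCAF (log2 fold change 1.09, SE 0.13, adjusted p = 5.43e-05). Entpd1, the CD39 enzyme that acts before CD73, was higher in mCAF at 31.8, 33.2 and 40.6 CPM in iCAF against 156, 166 and 154 CPM in mCAF (log2 fold change -2.15, SE 0.30, adjusted p = 1.56e-04) and averaged 49.7 CPM in NCAM-positive mCAF and 31.4 CPM in CD146-positive CAF. Nectin2 stood at 19.9, 17.2 and 21.5 CPM in iCAF against 42.1, 41.2 and 59.2 CPM in mCAF, and the checkpoint ligand gene Cd274 did not pass.

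Of 20 integrin genes, 5 were higher in iCAF (25%, against 10.3% of all genes) and 10 in mCAF (50%, against 24.5%). Itga5, the fibronectin receptor subunit, and Itga11, a collagen receptor subunit, stood at 428, 377 and 302 CPM in iCAF against 187, 155 and 149.6 CPM in mCAF (log2 fold change 1.16, SE 0.10, adjusted p = 4.00e-06) and at 238, 269.6 and 263 CPM in iCAF against 114, 122 and 75.1 CPM in mCAF (log2 fold change 1.33, SE 0.17, adjusted p = 7.21e-05). Itga8 and Itga1 were higher in mCAF at 0.988, 1.59 and 3.96 CPM in iCAF against 22.8, 16.2 and 18.9 CPM in mCAF and 4.14, 3.03 and 5.33 CPM in iCAF against 52.8, 14.0 and 62.9 CPM in mCAF. Itgb4, the hemidesmosome subunit of epithelium, stood at 5.7, 6.92 and 18.8 CPM in iCAF against 28.7, 38.8 and 66.2 CPM in mCAF and had a log2 fold change of -0.18 with the covariate. In axon guidance, 8 of 29 genes were higher in iCAF (27.6%, against 10.3% of all genes) and 9 in mCAF (31.0%, against 24.5%). The 8 became 5 without animal 27 and 5 without the iCAF library of animal 31. Class 3 semaphorins Sema3c, Sema3d and Sema3e were higher in iCAF (4.87, 2.40 and 2.95), and the receptors Unc5b and Robo2 and the ligand Slit2 were higher in mCAF (-3.31, -2.75 and -1.56). Unc5b stood at 4.84, 2.48 and 10.7 CPM in iCAF against 80.3, 33.8 and 80.2 CPM in mCAF.

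Of 19 retinoid genes tested, 2 were higher in iCAF and 5 in mCAF, shares of 10.5% and 26.3% that were near the 10.3% and 24.5% of all genes. Aldh1a3, which makes retinoic acid, stood at 198, 155 and 148 CPM in iCAF against 18.1, 3.4 and 16.3 CPM in mCAF (log2 fold change 3.88, SE 0.37, adjusted p = 1.14e-05), with no overlap. Crabp2, a cellular retinoic acid-binding protein, stood at 9.19, 8.86 and 18.9 CPM in iCAF against 38.4, 35.4 and 55.5 CPM in mCAF (log2 fold change -1.78, SE 0.15, adjusted p = 4.79e-06). Stra6 passed with the covariate. Aldh1a1 and Aldh1a2 did not pass.

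Of 45 fibroblast transcription factor genes tested, 11 were higher in iCAF (24.4%, against 10.3% of all genes) and 15 in mCAF (33.3%, against 24.5%). The iCAF genes included Osr2 at 117, 165 and 81.9 CPM in iCAF against 34.3, 60.8 and 25.2 CPM in mCAF (log2 fold change 1.61, SE 0.17, adjusted p = 1.90e-05), Ebf2 at 109, 127 and 103 CPM in iCAF against 44.0, 42.0 and 35.1 CPM in mCAF (log2 fold change 1.46, SE 0.15, adjusted p = 1.93e-05) and Klf4 at 242, 244 and 224 CPM in iCAF against 79.4, 173 and 90.6 CPM in mCAF (log2 fold change 1.13, SE 0.16, adjusted p = 2.15e-04). The mCAF genes included Runx1 and Runx2 (-1.82 and -1.91), with Runx1 at 14.9, 8.55 and 24.4 CPM in iCAF against 60.8, 33.5 and 78.6 CPM in mCAF. Runx1 averaged 110.3 CPM and Runx2 17.8 CPM in NCAM-positive mCAF. Sox9 stood at 19.5, 27.8 and 23.9 CPM in iCAF against 89.5, 71.8 and 83.4 CPM in mCAF, and its log2 fold change was -0.06 with the epithelial covariate. Klf5 stood at 4.22, 5.52 and 8.2 CPM in iCAF against 29.2, 30.2 and 31.0 CPM in mCAF.

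Genes that respond to handling and stress also differed. Of 26 immediate early and heat shock genes, 16 were higher in mCAF (61.5%, against 24.5% of all genes) and only Myc was higher in iCAF (3.85%, against 10.3%), with a median of -0.53. None was called with the epithelial covariate. Jun stood at 1722, 1417 and 1453 CPM in iCAF against 3603, 4208 and 2665 CPM in mCAF (log2 fold change -1.17, SE 0.14, adjusted p = 6.58e-05), Fosb at 367, 351 and 432 CPM in iCAF against 813, 1026 and 889 CPM in mCAF (log2 fold change -1.24, SE 0.13, adjusted p = 1.62e-05), Nr4a1 at 260.2, 235 and 371 CPM in iCAF against 602, 608 and 763 CPM in mCAF and Egr2 at 115, 118 and 157 CPM in iCAF against 472, 472 and 379.9 CPM in mCAF. Their mean in NCAM-positive mCAF was 1647 CPM for Jun, 477 CPM for Fosb and 279 CPM for Nr4a1, near iCAF, and 469 CPM for Egr2, near mCAF. Mitochondrial transcripts were 0.221% to 0.320% of reads in iCAF and 0.331% to 0.450% in mCAF. The part of cell handling in the comparison was not tested. Hypoxia and glycolysis genes gave 3 of 23 higher in iCAF and 6 in mCAF, shares of 13.0% and 26.1% beside 10.3% and 24.5% of all genes. Adm, adrenomedullin, stood at 652, 761 and 939 CPM in iCAF against 161, 370.1 and 108 CPM in mCAF (log2 fold change 2.05, SE 0.34, adjusted p = 5.19e-04), and Car12, a carbonic anhydrase, at 13.0, 12.1 and 51.8 CPM in iCAF against 92.3, 67.7 and 127 CPM in mCAF.

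**Figure D5:**
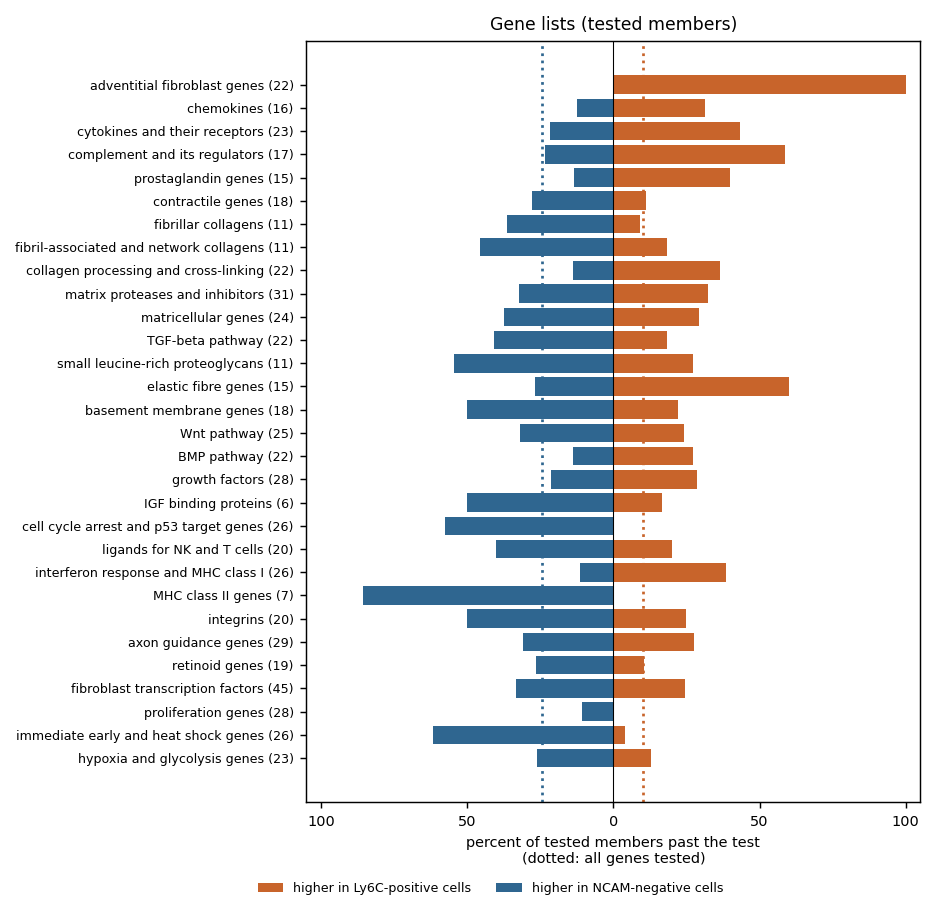
Percent of the tested members of each gene list that were higher in iCAF (orange, to the right) or higher in mCAF (blue, to the left), with the number tested in parentheses. Dotted lines mark the same percent over all 15456 genes, 10.3% and 24.5%. Adventitial genes were all higher in iCAF, and cell cycle arrest, MHC class II and immediate early genes were mostly higher in mCAF.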

How the data were processed

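RNA-seq libraries of sorted cells were sequenced on an Illumina instrument, per the labels. The deposited table holds CPM values per gene, and per the submitters' processing notes bcl2fastq, DRAGEN and build mm10 were used. No counting rule or strand setting is recorded in the labels, so overlapping and antisense genes cannot be told apart. Of 55774 lines, 287 repeated an identifier with equal values, leaving 55487 genes. Of the CPM values, 100% were whole multiples of 1 read within 0.001, so reads were recovered for count tests. Coordinates are from GENCODE M21 (99.4% of identifiers matched).

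Genes reaching 1 CPM in 3 or more of the 12 libraries were fitted as log2(CPM + 1) in limma 3.58.1 (R 4.3.3), with 4 groups and the animal as a block, an empirical Bayes trend, and a threshold of 0.05 on Benjamini-Hochberg values. Deviations of the iCAF and mCAF libraries of 1 animal correlated at 0.35, 0.31 and 0.37, and those of different animals at -0.26 to -0.07, so the shared numbers were taken to pair the samples. edgeR 4.0.16, which called 2195 genes higher in iCAF and 2910 in mCAF, and DESeq2 1.42.0 were run on recovered reads. The fit was tested on simulated data. Alternatives covered the pseudocount, the filter, the scaling, the tool, the block, the samples, an epithelial covariate and each library and animal left out.

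The genes named were the 12 largest changes each way among called genes (at least 10 CPM on the higher side, no overlap, same direction in 3 animals, numbered gene models left out), up to 4 called members of each list each way by adjusted p, the sort genes, Col1a1, Acta2, Il6, Cxcl12, Cdkn2a, Cdkn2b and Cdkn1a, and the 2 most abundant markers of each other cell type. A few further list members, chosen after their values were seen, are named too. List members under the filter were not tested and are left out of the counts. The comparison and the gene lists were chosen with earlier results of these data known. A gene that this rule names is not reported here.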

Additional observations from a re-analysis of the deposited data

How the results depend on the processing

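The numbers of genes higher in iCAF and in mCAF were 1593 and 3794. The number higher in iCAF was 2422 with TMM scaling, 2552 with median-of-ratios scaling and 2603 with DESeq2 on recovered reads. With the epithelial covariate the 2 numbers were 79 and 64, in a fit whose standard errors were 2.69 times as large by the median. Leaving out a library or an animal gave 964 to 1361 genes higher in iCAF and 2601 to 3405 in mCAF. Without the animal block, and so without the pairing, the numbers were 1356 and 3238. That fit lost 15 of the 237 named calls, among them Igfbp6, Masp1, Csf3, Mcam, Fabp4, Col3a1, Lum and Bgn. Of the 237 named calls, 34 were kept, 193 were lost and 10 changed sign with the covariate, and 213 to 237 were kept under each other alternative, except that the filter over the 6 libraries tested 236 and kept 236. With the covariate the log2 fold change changed sign for Cxcl2 (0.31), Col6a2 (0.12), Col6a1 (0.11), Crtap (0.73), Podnl1 (0.27), Emilin1 (0.0030), Wnt16 (-0.24), Hk2 (-0.31), Pdgfra (0.00032), Wfdc18 (0.68), Eng (0.42), Jchain (2.27) and Sox10 (0.10). When libraries or animals were left out, 3 uncalled genes crossed 0, with ranges of -0.63 to 0.040 for Cd3e, -0.18 to 2.61 for Car3 and -0.91 to 0.17 for Tnnt3. Wfdc18, and Csn3 and Epcam among the lost calls, belong to the epithelial list whose sum is the covariate. Their changes with the covariate were therefore built into that fit. The cause of the other changes was not tested. Each group holds 3 libraries, and their number limits the precision.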

Other observations

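The called members of the pericyte and endothelial marker lists did not all go the same way. Of 12 pericyte genes tested, 3 were higher in iCAF (25%, against 10.3% of all genes) and 4 in mCAF (33.3%, against 24.5%). Of 15 endothelial genes, 1 was higher in iCAF (6.67%, against 10.3%) and 12 in mCAF (80%, against 24.5%). The pericyte genes higher in iCAF were Kcnj8 and Abcc9, which encode the subunits of an ATP-sensitive potassium channel, and Vtn, which encodes vitronectin. The endothelial gene higher in iCAF was Tek, which encodes the angiopoietin receptor Tie2. Kcnj8 stood at 107, 73.0 and 141 CPM in iCAF against 12.7, 29.0 and 23 CPM in mCAF (log2 fold change 2.28, SE 0.31, adjusted p = 1.38e-04). Abcc9 stood at 40.6, 32.1 and 59.8 CPM in iCAF against 8.14, 13.9 and 14.3 CPM in mCAF, and Vtn at 62.8, 61.6 and 63.2 CPM in iCAF against 32.7, 36.6 and 16.5 CPM in mCAF. Tek stood at 126, 211 and 159 CPM in iCAF against 24.8, 32.8 and 23.5 CPM in mCAF (log2 fold change 2.55, SE 0.18, adjusted p = 1.62e-06), whereas Pecam1, a defining endothelial gene, stood at 2.75, 4.66 and 19.6 CPM in iCAF against 15.4, 29.7 and 74.8 CPM in mCAF. Angpt2, which encodes a ligand of Tie2, was lower in iCAF, so the receptor and this ligand were higher in opposite populations. Abcc9, Vtn and Tek were chosen after their values were seen.

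Skeletal muscle genes were uneven in mCAF. Acta1 stood at 2.56, 3.52 and 1.92 CPM in iCAF against 6.9, 1.98 and 112 CPM in mCAF and did not pass (adjusted p = 0.0853 by limma), and only the mCAF library of animal 31 was high. No muscle gene passed the test by limma, and the muscle sum without that library was 6.91 to 12.2 CPM in mCAF.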
